A study of Mus musculus with 8 samples.

Results

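Fos, Fosb, Fosl1, Fosl2, Jun, Junb, Jund, Egr1, Atf3 and Ier2, the AP-1 and immediate early transcription factor genes of the mouse, were followed from primary 4T1.2 mammary tumours to spine metastases of the same animals. All 10 genes were measured, by 14 of the 34945 probe sets with a single gene symbol, which stand for 18193 genes. A probe set is a group of short probes for 1 transcript on the array. Jun, Jund, Fosl1 and Fosl2 had 2 probe sets each and the other 6 genes had 1. The members were listed by gene name, with earlier results of these data known.

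The 8 arrays held 4 primary tumours growing in the mammary gland and 4 spine metastases, each pair from 1 of 4 mice of the strain Balb/c. The 4T1.2 line is a clone of the 4T1 mouse mammary carcinoma that spreads to bone without being injected there, so the tumours stand for 1 clone. The labels name no agent and no engineered allele in either group, and neither they nor the other sources used here give the age of the mice. They describe the material as tumour epithelial cells from both sites without saying how these were purified. The comparison asks how the transcriptome of cells in the spine departs from that of the tumour they came from.

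Immediate early genes are transcribed within minutes of a growth factor, cytokine or stress signal, with no new protein needed, through kinases of the MAP kinase family and pre-existing factors such as SRF, the ELK proteins and CREB. The FOS proteins (FOS, FOSB, FOSL1, FOSL2) pair with the JUN proteins (JUN, JUNB, JUND) through leucine zippers to form the AP-1 factor, and ATF3 is a related partner. In mammary carcinoma cells AP-1 is known for driving genes of invasion, such as matrix proteases.

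The promoters of Fos, Jun and Atf3 are shown because short elements that bind CREB, ATF and AP-1 proteins in them are textbook sites of signal-driven transcription, and the family regulates itself through such elements. Windows of 250 bases before to 50 bases after the annotated start were taken from RefSeq (build GRCm38.p6), whose table matched 7 of the 10 members, namely Fos, Fosb, Fosl2, Jun, Junb, Jund and Atf3. Capitals mark the letters of a searched motif, and each window is written in the direction of transcription. They lie at chr12:85473640-85473939 on the plus strand (Fos), chr4:95052173-95052472 on the minus strand (Jun) and chr1:191183284-191183583 on the minus strand (Atf3).
Fos: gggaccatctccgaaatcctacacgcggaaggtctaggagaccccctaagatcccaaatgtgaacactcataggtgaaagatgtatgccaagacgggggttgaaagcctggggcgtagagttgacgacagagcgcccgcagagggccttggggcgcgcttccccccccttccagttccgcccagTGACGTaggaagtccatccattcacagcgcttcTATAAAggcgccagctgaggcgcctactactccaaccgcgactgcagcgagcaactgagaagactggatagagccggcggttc
Jun: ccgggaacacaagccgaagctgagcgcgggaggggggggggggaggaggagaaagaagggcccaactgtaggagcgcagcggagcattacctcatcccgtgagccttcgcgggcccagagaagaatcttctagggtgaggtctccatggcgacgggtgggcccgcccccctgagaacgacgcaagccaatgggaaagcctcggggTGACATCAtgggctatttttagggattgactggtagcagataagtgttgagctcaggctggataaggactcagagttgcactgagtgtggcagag
Atf3: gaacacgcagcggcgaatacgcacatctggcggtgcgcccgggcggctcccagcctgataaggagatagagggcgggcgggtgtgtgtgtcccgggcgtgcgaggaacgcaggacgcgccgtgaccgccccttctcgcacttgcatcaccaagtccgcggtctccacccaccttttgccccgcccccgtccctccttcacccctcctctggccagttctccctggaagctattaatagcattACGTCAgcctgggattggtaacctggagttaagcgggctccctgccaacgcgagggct
The core of the cAMP response element, ACGTCA on either strand, began at -66 in the Fos window and at -8 in the Atf3 window, counted from the annotated start, and was in 2 of the 7 windows against 7.51% of the 32851 windows of this length in the table. The Fos window also held TATAAA from -33, a motif found as well in the Junb window, from 1, and in 13.6% of all windows, and the Jun window held TGACATCA, a variant AP-1 element, from -45 (3.62% of all windows). The EGR element GCGNGGGCG was in the windows of Fosb and Fosl2 (5.55% of all windows). Neither TGACTCA, the usual AP-1 element (5.2%), nor a CArG box, the element of SRF (1.63%), was found in any of the 7. Bases further than 250 before the start were not searched, nor was any part of Egr1, Fosl1 or Ier2. All motifs were read on both strands, and none overlapped another in these windows. A match describes letters and not binding.

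Precision here is limited by the number of arrays. The control probe sets of actin separated the groups, with a drop between the 3'-end and the 5'-end probe sets of 1.08 to 1.897 on primary arrays and of 4.55 to 6.18 on metastasis arrays (log2), steepest on metastasis replicates 3 and 4. The difference had the smallest p that an exact permutation test of 4 against 4 arrays allows (two-sided p = 0.0286, adjusted p = 0.04 over 14 control measures), and the Gapdh control gave the same p. No label gives a batch. The summed signal of 12 epithelial markers ran from 13.80 to 13.89 on primary arrays and from 10.20 to 13.72 on metastasis arrays (log2). Krt8 lay at 7.34 and 9.80 on metastasis replicates 1 and 3 and at 12.39 and 12.97 on replicates 2 and 4, against a primary mean of 13.20. Of the 12 markers 2 were called lower by limma, Krt19 and Cldn4, and 0 higher (6 lower and 0 higher at an unadjusted p under 0.05). Like Krt8, the markers Krt18, Krt19, Krt7, Krt5 and Cldn3 had their lowest metastasis values on replicates 1 and 3. Krt14, Epcam, Cdh1, Cldn4, Cldn7 and Esrp1 did not. Cdh1 lay at 6.998 and 6.96 on metastasis replicates 1 and 3 against a primary mean of 6.46. Epcam differed by -0.22 between the groups (limma adjusted p = 0.544).

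Most members had a lower signal in bone metastasis. With the brightest probe set of each gene, 7 of the 10 genes were called lower (Fos, Fosb, Fosl1, Fosl2, Junb, Atf3 and Ier2) and 1 higher (Jund), where called means a limma adjusted p under 0.05 over all 34945 probe sets. Over all genes 12% were called lower and 9.93% higher. By probe set, 8 of 14 were called lower and 1 higher, against 11.9% and 8.72% of all probe sets. The median log2 difference of the 10 genes, metastasis minus primary, was -1.50, with a range from -2.37 to 0.69, and that of all genes was 0.09. These bases include dim genes, whereas the members had primary means of 10.62 to 13.22, against array medians of 5.52 to 5.63. In a fit of only the probe sets with a mean signal above the median, 6173 were called. Of these calls 65.6% were lower, against 57.8% of 7214 in the main fit, and the median difference was -0.19. No base of genes as bright as the members was taken. The groups did not overlap for 8 genes that lay lower and for Jund that lay higher, against 14.2% and 15.2% of all genes, and 8 of the 10 genes were lower in all 4 mice, against 20.4% of all genes. The 8 called genes became 5 without metastasis replicate 4, 4, 5, 3 and 3 without primary replicates 1 to 4, 5 without mouse 1 and 2 without mouse 3 or mouse 4. Over all probe sets, 7214 calls became 6658 without metastasis replicate 4 and 5136, 4599, 4040 and 3803 without primary replicates 1 to 4. They became 5594, 2319 and 3336 without mouse 1, 3 and 4. In such bulk samples fewer cells of a type and less RNA per cell cannot be told apart. With the actin control drop as a covariate, 0 of the 14 probe sets were called by limma, 0 had an unadjusted p under 0.05, and the differences of Fos, Junb, Ier2 and the dimmer Jun probe set turned positive and those of both Jund probe sets and the dimmer Fosl2 probe set negative. The actin drop and the group can hardly be told apart in these arrays, and the covariate raised the median SE of the 10 genes from 0.29 to 0.97.

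**Figure D1:**
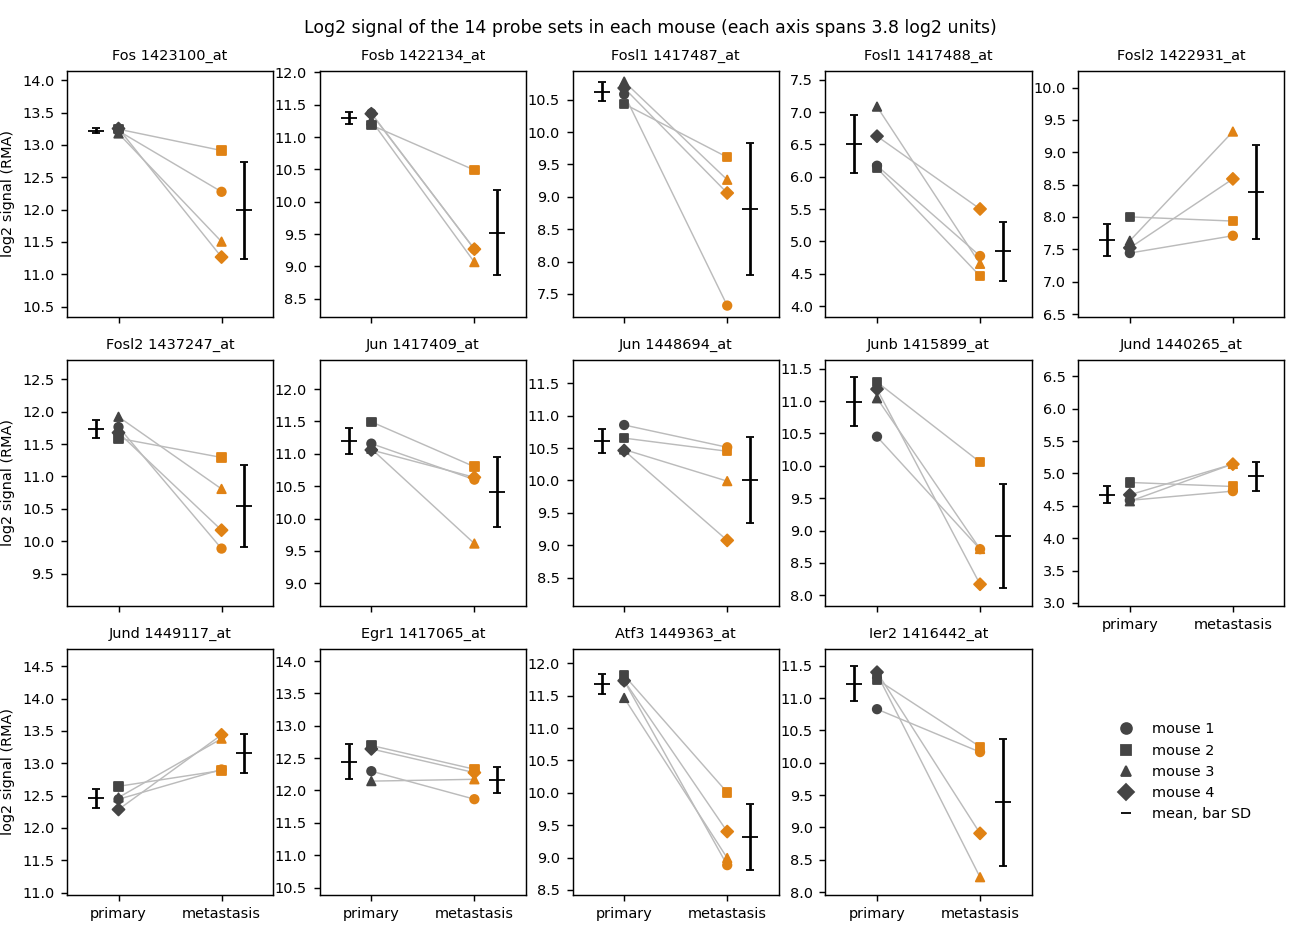
Log2 signal (vertical axis) of each of the 14 probe sets in primary tumour and bone metastasis. Symbols stand for the 4 mice, lines join the 2 arrays of a mouse, and bars beside them give the mean with the SD. The primary arrays of Fos lie within 13.18 to 13.25, and metastasis replicate 2 (square) is the highest metastasis array in the 7 genes called lower.

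**Figure D2:**
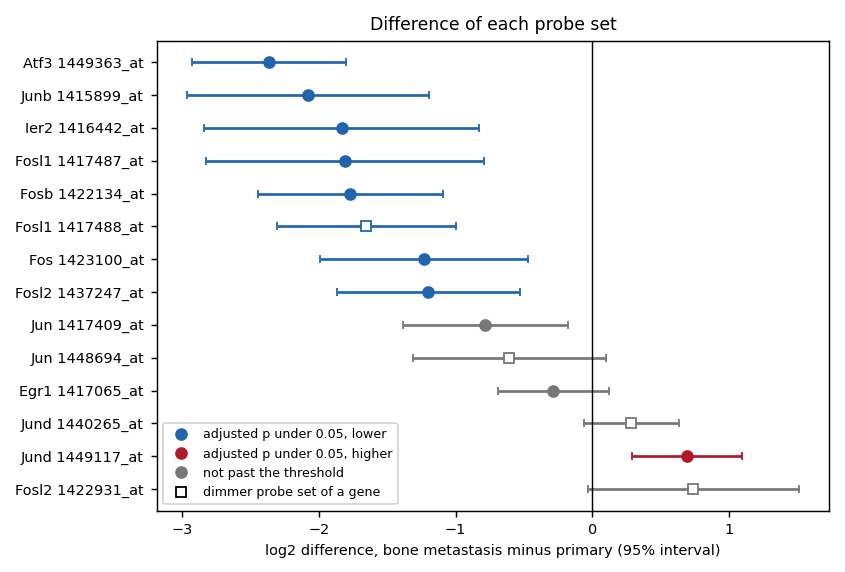
Log2 difference of each probe set, bone metastasis minus primary (horizontal axis), with its 95% interval from limma. Filled circles are the brightest probe set of a gene, open squares the dimmer one, and colour gives the call. Atf3 lies lowest at -2.37, and the dimmer Fosl2 probe set highest at 0.74.

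Fos encodes the founding member of the FOS family. Its log2 signal was 13.22, 13.24, 13.18 and 13.25 on primary arrays 1 to 4 and 12.27, 12.91, 11.50 and 11.27 on metastasis arrays 1 to 4. The primary arrays were nearly alike and the metastasis arrays were spread, with replicates 3 and 4 lowest. The mean went from 13.22 ± 0.034 to 11.99 ± 0.75 (SD, n = 4 each), a log2 difference of -1.23 with an SE of 0.33, or 2.35-fold lower (limma adjusted p = 0.0327). It was -0.64 in mice 1 and 2 and -1.83 in mice 3 and 4. The call was lost by limma without metastasis replicate 3 or 4 (adjusted p = 0.0815 and 0.0577), without any 1 of the primary arrays (0.0722, 0.0788, 0.079 and 0.086 for replicates 1 to 4) and without mouse 1, 3 or 4 (0.078, 0.166 and 0.135).

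Fosb encodes a FOS protein also known for a long-lived splice form in neurons. The primary arrays read 11.37, 11.18, 11.26 and 11.36 and the metastasis arrays 9.27, 10.49, 9.07 and 9.27 (log2 signal). Metastasis replicate 2 stood between the primary arrays and the other 3 metastases. The mean changed from 11.29 ± 0.088 to 9.52 ± 0.65 (SD, n = 4 each), a difference of -1.77 (SE 0.30, 3.41-fold lower, limma adjusted p = 0.00529). The call held in each of the 12 fits that left out an array or a mouse, with adjusted p of 0.0497 at most.

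Fosl1 encodes FRA-1, a FOS protein linked to motility and invasion of mammary carcinoma cells. Its brighter probe set read 10.58, 10.44, 10.78 and 10.68 on primary arrays and 7.32, 9.61, 9.26 and 9.06 on metastasis arrays. Metastasis replicate 1, the array with the lowest Krt8 and Krt18, was the lowest by more than 1 log2 unit. The difference was -1.81 (SE 0.45, 3.50-fold lower, limma adjusted p = 0.0235). The call was lost without any 1 of the primary arrays, at differences of -1.75 to -1.87 (limma adjusted p = 0.0538, 0.0528, 0.0682 and 0.0673 for replicates 1 to 4), as it was without mouse 3 or 4 (0.103 each) and after quantile normalization (0.0763). The dimmer probe set, at 6.17, 6.13, 7.08 and 6.63 in primary tumours and 4.77, 4.47, 4.65 and 5.50 in metastases, fell by 1.65 (SE 0.29, limma adjusted p = 0.00614). Its metastasis values, the brightest at 5.50, lie under the array medians of 5.55 to 5.63, so the size of this fall is not exact.

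Fosl2, which encodes FRA-2, gave opposite signs on its probe sets. The brighter probe set read 11.76, 11.59, 11.92 and 11.68 in primary tumours and 9.89, 11.29, 10.81 and 10.17 in metastases, a difference of -1.20 (SE 0.29, 2.30-fold lower, limma adjusted p = 0.0224). The dimmer one read 7.44, 8.001, 7.63 and 7.52 in primary tumours and 7.71, 7.94, 9.32 and 8.59 in metastases, a difference of 0.74 (SE 0.34, limma adjusted p = 0.157), and its high values were on replicates 3 and 4. The gap between the probe sets shrank from 4.09 ± 0.34 to 2.15 ± 0.86 (SD, n = 4 each), with no overlap (exact permutation p = 0.0286, adjusted p = 0.0571 over 4 such genes). The mean of both gave a difference of -0.23 (limma adjusted p = 0.511), so the fall of Fosl2 rests on the probe set. The call was also lost by limma without metastasis replicate 4, at -1.08 (adjusted p = 0.0503), without primary replicate 1, 3 or 4, at -1.14 to -1.22 (0.0547, 0.0693 and 0.0606), without mouse 1, 3 or 4 (0.0712, 0.106 and 0.114), after scaling to the 75th percentile and after quantile normalization (0.0524 each).

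The JUN family gave differences of both signs. Junb encodes a JUN protein that can restrain JUN-driven transcription. It read 10.45, 11.29, 11.04 and 11.19 on primary arrays and 8.71, 10.06, 8.72 and 8.17 on metastasis arrays, where replicate 2 was again the highest. The mean went from 10.99 ± 0.38 to 8.91 ± 0.80 (SD, n = 4 each), a difference of -2.08 (SE 0.39, 4.23-fold lower, limma adjusted p = 0.00802). It was -1.49 in mice 1 and 2 and -2.67 in mice 3 and 4, and the call was lost without mouse 3 or 4 (limma adjusted p = 0.0723 and 0.0538).

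Jun itself, the main transactivating partner of FOS, read 11.16, 11.49, 11.08 and 11.06 in primary tumours and 10.60, 10.80, 9.61 and 10.64 in metastases on its brighter probe set. These groups did not overlap, yet the difference of -0.78 (SE 0.26) did not pass the test (limma adjusted p = 0.0689). Without metastasis replicate 2 it did, at -0.91 (limma adjusted p = 0.0477). The dimmer probe set read 10.86, 10.65, 10.48 and 10.46 in primary tumours and 10.51, 10.45, 9.99 and 9.07 in metastases, a difference of -0.61 (SE 0.31, limma adjusted p = 0.197) with overlapping groups. Both probe sets were lower in all 4 mice.

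Jund, the JUN gene known for steady rather than induced expression, was the only member called higher. It read 12.44, 12.64, 12.47 and 12.29 on primary arrays and 12.90, 12.89, 13.38 and 13.44 on metastasis arrays. Every metastasis array lay above every primary array, and replicates 3 and 4 were the highest. The mean rose from 12.46 ± 0.15 to 13.15 ± 0.30 (SD, n = 4 each), by 0.69 (SE 0.18, 1.62-fold, limma adjusted p = 0.0259). With the mouse as a block the call was lost (limma adjusted p = 0.0742), as it was without metastasis replicate 3 (0.0618), without primary replicate 1, 3 or 4 (0.0641, 0.0714 and 0.0852), without mouse 1, 3 or 4 (0.0522, 0.144 and 0.127) and with the mean of both probe sets (0.0536). The difference was 0.35 in mice 1 and 2 and 1.03 in mice 3 and 4. The dimmer probe set lay between 4.57 and 5.15 on all 8 arrays, under every array median, and differed by 0.28 (SE 0.15, limma adjusted p = 0.22).

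Atf3, a stress-induced repressor and AP-1 partner, had the lowest difference of the 10 genes. Its log2 signal was 11.73, 11.82, 11.47 and 11.73 on primary arrays and 8.88, 10.01, 8.99 and 9.40 on metastasis arrays. The groups lay more than 1 log2 unit apart at their nearest arrays. The mean went from 11.69 ± 0.15 to 9.32 ± 0.51 (SD, n = 4 each), a difference of -2.37 (SE 0.25, 5.15-fold lower, limma adjusted p = 0.000972). It was -2.85, -1.81, -2.47 and -2.33 in mice 1 to 4. Among the fits without an array or a mouse the adjusted p reached 0.0145 at most.

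Ier2, a small nuclear protein gene of the immediate early response, read 10.83, 11.29, 11.37 and 11.40 in primary tumours and 10.16, 10.25, 8.23 and 8.91 in metastases. The metastasis arrays fell into a higher pair, replicates 1 and 2, and a lower pair, replicates 3 and 4. The difference was -1.83 (SE 0.44, 3.56-fold lower, limma adjusted p = 0.0213), made of -0.85 in mice 1 and 2 and -2.82 in mice 3 and 4. The call was lost by limma without metastasis replicate 4 (adjusted p = 0.0508), without primary replicate 2, 3 or 4 (0.0571, 0.0629 and 0.0652) and without mouse 3 or 4 (0.0911 and 0.127). Without metastasis replicates 3 and 4, the arrays with the steepest actin drop, the difference was -1.02 (limma adjusted p = 0.0151). Metastasis replicates 1 and 2, kept in that fit, still had drops of 4.85 and 4.55, against 1.897 at most on primary arrays.

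Egr1, the zinc finger factor induced beside Fos by the same kinases, changed little. Its values were 12.30, 12.70, 12.14 and 12.64 on primary arrays and 11.87, 12.33, 12.17 and 12.28 on metastasis arrays. The groups overlapped, and mouse 3 was slightly higher in the metastasis while the other 3 mice were lower. The difference of -0.28 (SE 0.18, 95% interval from -0.69 to 0.12) did not pass the test (limma adjusted p = 0.284), and it was 0.029 after scaling to the 75th percentile. The interval holds falls of up to 0.69 on the log2 scale. Among the 7 genes called lower, the 95% intervals of Fosl2 (-1.87 to -0.53) and Fos (-1.99 to -0.47) overlap it. Those of the other genes called lower lie below it, the nearest being that of Fosl1, which ends at -0.79. Intervals of single genes do not test a difference between genes.

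Whether members changed unequally was tested on the within-array difference of each of the 45 pairs of genes, a test chosen after the values were seen. Of these, 22 had the smallest exact permutation p that 4 against 4 arrays allow (0.0286), but none passed adjustment over the 45 pairs (adjusted p = 0.0584). With 22 pairs tied at the smallest p, the adjusted p is set by that count. How many pairs of other genes would reach this p was not tested, so the count has no base to be set against. The 45 pairs share their genes and are not independent. All 9 pairs with Jund were among the 22, which restates that Jund lay higher while most members lay lower. The within-array log2 difference of Egr1 minus Atf3 was 2.08 higher in metastases and that of Egr1 minus Ier2 1.55 higher. Likewise, Junb minus Egr1 changed by -1.80, Fosl1 minus Egr1 by -1.52 and Fosb minus Egr1 by -1.48. None of these 5 overlapped between the groups. Fos minus Egr1, with a change of -0.95, and Fosl2 minus Egr1, with -0.91, overlapped (each exact permutation p = 0.0571, adjusted p = 0.0989 over the 45 pairs). Jun minus Egr1, at -0.50, overlapped too (exact permutation p = 0.0857, adjusted p = 0.133).

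The spread among metastases was wide. In 9 of the 10 genes the SD of the metastasis arrays was above that of the primary arrays, with medians of 0.64 and 0.15, against 0.41 and 0.17 over all genes. Metastasis replicate 2 was the highest metastasis array in all 7 genes called lower. Set against the primary mean, the median of these 7 genes was -0.94 on replicate 2 and -2.02, -2.22 and -2.02 on replicates 1, 3 and 4. Replicate 2 also had the least actin drop among the metastases (4.55) and the highest summed macrophage signal (14.70). On replicates 1, 3 and 4 the drops were 4.85, 5.72 and 6.18 and the macrophage sums 13.09, 14.38 and 14.50. Replicates 1 and 4 thus had the same median of -2.02 at unlike drops and sums. A link of the genes to either measure was not tested. The lowest array was replicate 1 in 3 of the 7 genes, replicate 3 in 2 and replicate 4 in 2.

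**Figure D3:**
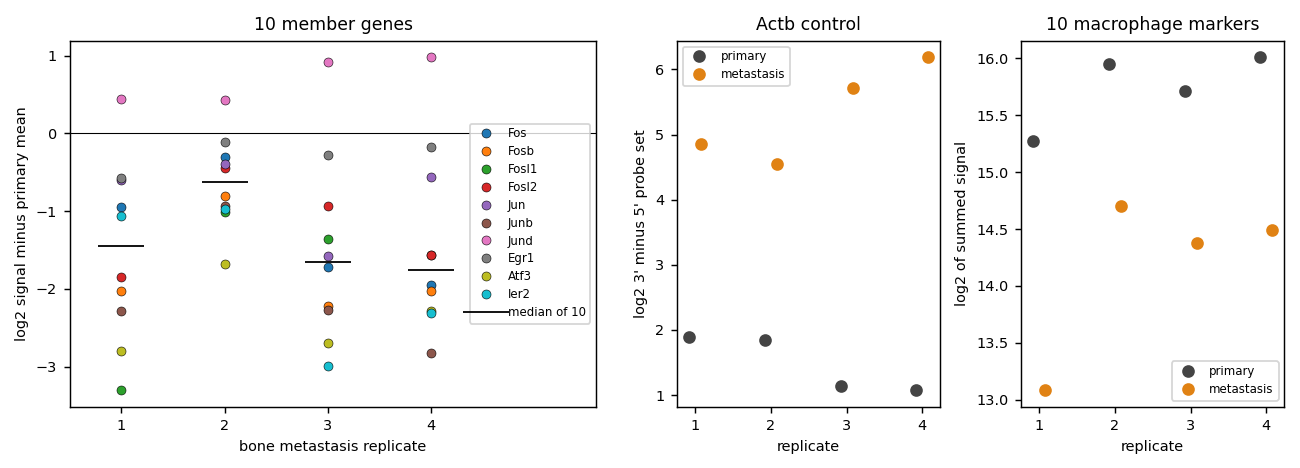
Left, log2 signal of each of the 10 genes on each bone metastasis array minus the gene's primary mean, with a bar at the median of the 10. Middle and right, the actin control drop and the summed signal of 10 macrophage markers (log2) on all 8 arrays by replicate. The median over the 10 genes is -0.62 on metastasis replicate 2 and -1.45 to -1.76 on the others.

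Markers of several other cell types moved with the group. Of 10 macrophage markers 8 were lower and 0 higher (9 lower and 0 higher at an unadjusted p under 0.05), and their summed log2 signal ran from 15.27 to 16.01 on primary arrays and from 13.09 to 14.70 on metastasis arrays. Neutrophil markers ran from 11.49 to 12.06 and from 14.25 to 15.28, B lineage markers from 8.19 to 8.56 and from 11.34 to 15.15, and neuronal markers from 7.63 to 7.75 and from 12.12 to 13.60. Cartilage markers ran from 9.35 to 10.01 and from 10.17 to 11.57, skeletal muscle markers from 7.32 to 7.50 and from 7.77 to 8.45, and osteoblast and osteoclast markers from 11.00 to 12.29 and from 9.47 to 10.42. By limma 8 of 8 neuronal and 6 of 7 B lineage markers were called higher and 0 lower. Only 5 of 9 neutrophil markers were called higher and 0 lower, with Lcn2 at -0.20. For skeletal muscle it was 2 of 6, Tnnt3 and Pvalb, and 0 lower. Of the 6 osteoblast and osteoclast markers measured, 1 was called lower (Acp5, -2.89) and 1 higher (Ibsp, 2.74). Acp5 had the highest primary mean of them, 11.67, and so weighed most in their sum. Of 6 cartilage markers 3 were called higher and 0 lower, with Sox9 at -1.18 (limma adjusted p = 0.126). The summed signals of T and NK, erythroid, endothelial and fibroblast markers overlapped between the groups (exact permutation p = 0.0857, 0.114, 0.171 and 0.257). Array signals have no true zero, so no marker can be called absent. The part of these cells, and of the control drop, in the differences of the 10 genes was not tested. With metastasis replicates 3 and 4 left out, 5 of the 10 genes were called lower, namely Fosb, Fosl1, Junb, Atf3 and Ier2, against 10.2% of all genes in that fit. Metastasis replicates 1 and 2, kept there, still had actin drops of 4.85 and 4.55, against 1.897 at most on primary arrays. With metastasis replicates 1 and 3 left out, those with the lowest Krt8 and Krt18, 4 were called lower, namely Fosb, Fosl1, Atf3 and Ier2, against 8.21% of all genes. Metastasis replicates 2 and 4, kept in this fit, had actin drops of 4.55 and 6.18, the latter the steepest of all arrays. Both omissions were chosen after the data were seen, and neither separates cell content or the control drop from the group.

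Related genes were read from 6 lists, of which 110 of 120 genes were measured under a name of their own, with the brightest probe set of each. Over all 6 lists 41 genes were lower and 5 higher, with a median of -0.86. These 46 calls became 30 and 29 without primary replicates 3 and 4, and 11 and 24 without mice 3 and 4. Over all genes, the base for each list below, 12% were lower and 9.93% higher, with a median of 0.09. That base includes dim genes. At an unadjusted limma p under 0.05, in either direction, there were 12235 of all 34945 probe sets. In a fit of the brightest probe sets alone there were 6584 of 18193 genes. Both counts pool the directions, so counts of lower or higher genes at this p have no matching base. Among 23 other immediate early transcription factors and regulators, 8 were lower, 1 was higher and 14 did not pass. Egr2, a relative of Egr1, fell by 2.02 (SE 0.34), the small MAF protein gene Maff fell by 2.17 (SE 0.38) and the antiproliferative gene Btg2 fell by 1.34 (SE 0.22). A second probe set of Egr2 gave -0.85 (SE 0.21) and one of Btg2 -1.91 (SE 0.33). Cebpd, a factor of the acute phase response, was the 1 that rose, by 1.44 (SE 0.35).

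Of 20 feedback regulators of the response 8 were lower and 1 was higher, with a median of -0.85. Dusp4 and Dusp6, phosphatases that switch off ERK kinases, differed by -3.47 (SE 0.58) and -3.35 (SE 0.52), and Zfp36, which destabilises cytokine and immediate early mRNAs, fell by 2.35 (SE 0.31). Gadd45b rose by 0.88 (SE 0.22). Of 15 secreted and cytoplasmic immediate early genes 6 were lower and 0 higher (10 lower and 0 higher at an unadjusted p under 0.05). They included the polo-like kinase genes Plk2 (-2.66, SE 0.38) and Plk3 (-1.50, SE 0.32) and Ptgs2, the inducible prostaglandin synthase (-3.88, SE 0.76). A second probe set of Ptgs2 gave -2.80 (SE 0.42) and one of Plk2 -0.03 (SE 0.30).

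Partners of FOS and JUN in the wider bZIP family were split, with 4 of 16 lower and 3 higher. Mafg fell by 1.47 (SE 0.21), and its second probe set gave -1.26 (SE 0.21). Ddit3, which encodes the stress factor CHOP, rose by 1.49 (SE 0.19), Atf4, its upstream activator, by 1.27 (SE 0.19) and Atf5 by 0.66 (SE 0.18). A second probe set of Ddit3 gave 0.72 (SE 0.26) and was not called (limma adjusted p = 0.0858). Other probe sets of Atf4 gave 0.24 (SE 0.24) and -0.68 (SE 0.23), so its rise rests on the probe set. Of 17 upstream kinases and serum response factors 5 were lower and 0 higher (6 lower and 1 higher at an unadjusted p under 0.05). Map2k1, which encodes the ERK-activating kinase MEK1, fell by 2.85 (SE 0.64), Mapkapk2, a target of p38 kinase, fell by 1.81 (SE 0.45) and the SRF partner gene Elk3 fell by 1.34 (SE 0.34), with other Elk3 probe sets at -0.69 (SE 0.20), -1.33 (SE 0.75) and 0.73 (SE 0.43). Srf differed by -0.09 (SE 0.16, limma adjusted p = 0.721).

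Known AP-1 target genes had the lowest median of the 6 lists, -1.92, with 10 of 19 lower and 0 higher (15 lower and 0 higher at an unadjusted p under 0.05). The chemokine gene Ccl2 fell by 3.73 (SE 0.40), the urokinase gene Plau fell by 4.17 (SE 0.51) and the cytokine gene Lif fell by 3.01 (SE 0.41), each in all 4 mice. A second probe set of Plau gave -1.79 (SE 0.37) and one of Lif -0.15 (SE 0.27). Several of these genes are also expressed by macrophages, whose markers were lower in the same arrays. The part of macrophages, or of the control drop, in these differences was not tested.

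**Figure D4:**
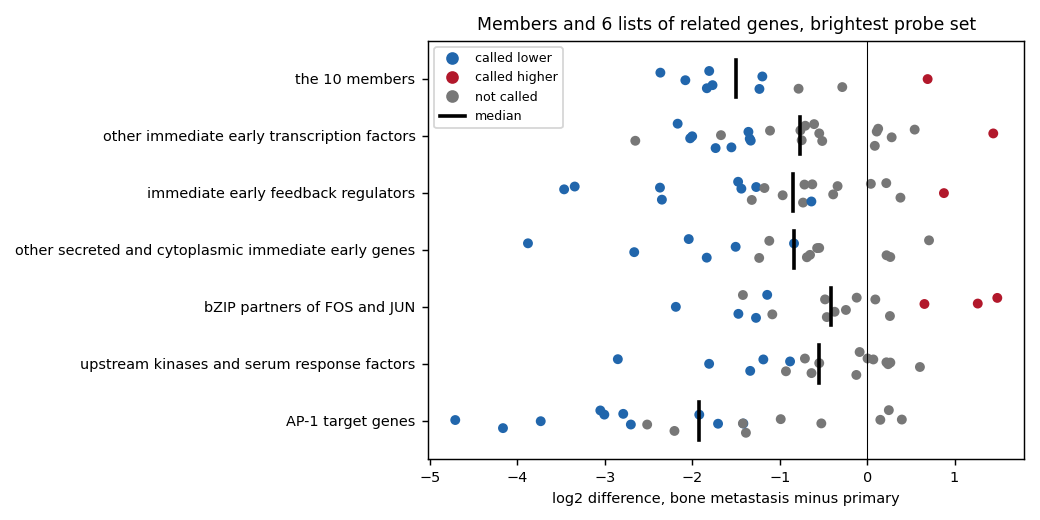
Log2 difference, bone metastasis minus primary (horizontal axis), of the 10 genes and of the genes of 6 lists, 1 point a gene on its brightest probe set, with colour for the call and a bar at the median. The medians run from -0.42 (bZIP partners) to -1.92 (AP-1 targets), and that of the 10 members is -1.50.

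The genes with the most similar profiles were sought among 7255 genes with an SD of at least 0.5 over the 8 arrays, by the root mean square difference of their centred log2 values. For Fos these were Pak2 (0.113), Acbd5 (0.121) and Capza2 (0.124), where the SD of Fos itself was 0.82. For Jun they were Trim26 (0.138), Hspa4l (0.189) and Nudt14 (0.192), and for Fosl1 they were Ociad2 (0.234), Irx2 (0.244) and Lama5 (0.245). The nearest genes to Egr1, Slc38a7 (0.288), Smagp (0.312) and P2ry2 (0.313), lay further off than the SD of Egr1 (0.27), and the limit of 0.5 on the SD keeps out genes as flat as Egr1.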

How the data were processed

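Total RNA of 8 samples was labelled with biotin in 2 amplification cycles and hybridised to 1-colour arrays, per the labels' protocols. The deposited values are log2 signals, and the submitters' processing notes name RMA as the authors' method (background correction, quantile normalization and summary over probes). No source used here gives its version or any later adjustment. Of 45101 probe sets, 64 were controls, 932 had several gene symbols and 9160 none listed, and these entered no test.

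The groups were compared by limma 3.58.1 (lmFit and eBayes, R 4.3.3) on the deposited values over 34945 probe sets, two-sided, with no block in the model, and p-values were adjusted over all of them by Benjamini-Hochberg. Of several probe sets of a gene the brightest on average stands for it. Single values were tested by exact permutation over all 70 splits of the arrays. Named genes were all members and, from each list, the 3 with the smallest adjusted p that moved alike in all 4 mice. Cebpd, Gadd45b, Atf5 and Srf were named after their values were seen. Members and lists were chosen with earlier results of these data known. List genes without a match on the platform were not analysed here. Same-numbered arrays were taken as 1 mouse, since the design text says that both tumours came from the same animal and calls the 4 replicates independent. Their deviations from the group means correlated only between -0.10 and 0.16. Differently numbered arrays of the 2 groups correlated between -0.11 and 0.19, so these values do not single out the same-numbered pairs. Alternatives were the mouse as a block, 3 scalings, a filter on dim probe sets, other variance models and weights, other choices of probe set, the actin covariate and leaving out arrays or mice. Python 3.11.15 with numpy 2.4.6, pandas 2.3.3 and scipy 1.17.1 was used.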

Additional observations from a re-analysis of the deposited data

Results flagged for a closer look

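Among 28 sets of 4 arrays, 2 held an array that lay far from the other 3, and chance marks about 1 in 20 such sets. Fosb had a log2 signal of 10.49 on metastasis replicate 2, with the other 3 metastases between 9.07 and 9.27. Jun had 9.61 on metastasis replicate 3 with its brighter probe set, with the other 3 between 10.60 and 10.80.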

How the results depend on the processing

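The number of member probe sets called was 9, of member genes 8 and of genes of the 6 lists 46. Leaving out 1 array or 1 mouse moved these counts to between 2 and 10, between 2 and 9, and between 11 and 60, each lowest without mouse 3 (the gene count also without mouse 4). Over all probe sets the count went from 7214 to 2319 without mouse 3. With the actin covariate each of the 3 counts was 0 by limma (0, 0 and 14 at an unadjusted p under 0.05), over all probe sets it was 0 (4552 at an unadjusted p under 0.05), and the differences of Fos (1.52), Junb (0.78), Ier2 (1.77) and Jund (-0.62) had turned. The cause was not tested. Alternatives chosen after seeing the data left out metastasis replicates 1 and 3 (5 probe sets, 4 genes and 23 list genes) or 3 and 4 (6, 5 and 43), where fewer arrays entered the fit. The paired fit, with the mouse as a replicate block, called 8 probe sets, 7 genes and 42 list genes, and of the member calls on the brightest probe sets it ended that of Jund alone. With 75th-percentile scaling the median difference of all probe sets went from 0.09 to 0.40 and the share of calls that were lower went from 57.8% to 36.1%. Egr1 turned to 0.029 under it, and against that median of 0.40 it still lay lower. The other planned settings kept the 3 counts within 1.5 times.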

Other observations

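The other EGR and NR4A genes, looked at together after their values were seen, gave differences of both signs. Egr3 differed by -1.67 (SE 0.81, limma adjusted p = 0.179) and Egr4 by 0.28 (SE 0.23, limma adjusted p = 0.409), beside the fall of Egr2. The orphan nuclear receptor genes Nr4a1, Nr4a2 and Nr4a3, induced early by many of the same signals, differed by -0.55 (SE 0.20), 0.54 (SE 0.59) and -0.61 (SE 0.37), and none passed the test (limma adjusted p = 0.0881, 0.534 and 0.271). Of the KLF genes on the lists, also named after their values were seen, Klf4, an epithelial and myeloid factor, fell by 1.36 (SE 0.24, limma adjusted p = 0.00685), while Klf2, Klf6 and Klf10 differed by -0.51, -1.11 and -2.65 without passing it. Nfkbia, the inhibitor that NF-kappaB induces against itself, differed by 0.26 (SE 0.15, limma adjusted p = 0.251) and was higher in all 4 mice.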
